A study of Mus musculus with 12 samples.

Results

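The subject is the NRF2 antioxidant response, described through 10 genes in cultured mouse keratinocytes: Nfe2l2, Keap1, Nqo1, Gclc, Gclm, Srxn1, Txnrd1, Gsr, G6pdx and Me1. Members were found in the count table by gene name, and each name matched 1 gene of the 54532 in it, as the authors deposited it. A filter on low counts left 13571 genes for testing, and all 10 members were among them. The data were messenger RNA counts from 12 libraries in 4 groups of 3. Every group came from keratinocytes, the main cell of the epidermis, with the genotype label WT DP-BirA(1-584): they carried residues 1 to 584 of desmoplakin, a desmosome protein, fused to the biotin ligase BirA. All received doxycycline at 2 µg/mL, calcium (1.2 micromolar in the labels) and a 16 h biotin pulse. Translating material from a sucrose gradient was passed over neutravidin, which binds biotin. The RNA that stayed on the resin is named cortical below, and what was left after depletion is named total. Cells were left intact or scratch wounded, and total and cortical RNA of each made up the 4 groups. None of these groups lacked the fusion protein or the doxycycline. The sample titles call the replicates biological, but the labels do not say whether they came from separate dishes. The p-values therefore measure the spread between these libraries.

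NRF2, the protein made from Nfe2l2, is a transcription factor that binds antioxidant response elements together with a small Maf protein. In unstressed cells KEAP1 holds NRF2 and passes it to a CUL3 ubiquitin ligase for destruction. Oxidants and electrophiles modify cysteines of KEAP1, NRF2 then accumulates, and its targets are transcribed. Those targets make glutathione, recycle thioredoxin and supply NADPH, the electron donor of both systems. In epidermis the pathway is known for protecting keratinocytes against ultraviolet light and chemicals. The control of NRF2 is largely at the level of protein stability, so the messenger of Nfe2l2 is not by itself a readout of NRF2 activity.

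Since the members are known as NRF2 targets or regulators, their start sites were searched for the core of the antioxidant response element, TGACNNNGC, on both strands. The windows held 250 bases before and 50 after each RefSeq start site in GRCm38.p6. RefSeq windows were matched for 8 of the 10 genes, all but Gclc and Gsr, and 6 of those 8 (75%) held a match in at least 1 window. Over all genes in the table, 14% of 27025 held one, and 12.4% of 32851 windows did. The 6 matches are shown because they differ in the 3 free bases and in the flanks. Each is read on the strand of the match, with the 9 bases of the motif in capitals.
Nfe2l2: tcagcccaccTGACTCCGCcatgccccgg
Gclm: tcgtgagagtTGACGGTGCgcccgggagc
Srxn1: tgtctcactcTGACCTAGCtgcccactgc
Txnrd1: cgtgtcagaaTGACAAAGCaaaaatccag
G6pdx: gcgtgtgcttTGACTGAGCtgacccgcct
Me1: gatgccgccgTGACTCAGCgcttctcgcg
The printed stretch of Nfe2l2 is chr2:75704885-75704913 on the minus strand. Its motif starts 240 bases upstream of the start site and lies outside the GENCODE bounds of Nfe2l2. Gclm has its stretch at chr3:122245413-122245441, minus strand, 134 bases upstream of the start and also outside its own gene. Overlap with genes other than the member itself was not checked. For Srxn1 it is chr2:152105542-152105570, minus strand, 28 bases downstream of the start in an exon. That of Txnrd1 is chr10:82859104-82859132, minus strand, 92 bases upstream of an internal start site and in an intron of the longer transcripts. In G6pdx the stretch is chrX:74428919-74428947, plus strand, 57 bases upstream of the RefSeq start, and in Me1 it is chr9:86695902-86695930, minus strand, 6 bases upstream. Both of those overlap exons of transcripts that start farther out. The windows of Keap1 and Nqo1 held no run of these letters. A match describes the sequence and not a bound site.

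Library totals ran from 8980013 to 23457548 counts. The first replicate of wounded total stood apart: it had counts in 13117 genes, against 14393 to 16867 elsewhere, and rank correlations of 0.962 and 0.966 with its group mates, against 0.981 to 0.990 for all other pairs of replicates. Many results that rest on it, though not all, are given with and without it. All 11 keratinocyte markers were detected, with Krt14 and Krt5 highest and Krt1 at 0 to 1.84 CPM (counts scaled to library size, here with TMM factors). Their summed level was 9342 to 10617 CPM in unwounded total, 13637 to 13799 in unwounded cortical, 15637 to 18455 in wounded total and 18989 to 19395 in wounded cortical libraries. It thus moved with both wounding and fraction, and its part in the results below was not tested. In such bulk libraries, fewer cells of a type and less RNA per cell cannot be told apart. The lists for fibroblasts, melanocytes, immune cells and endothelium summed to at most 6.47, 2.27, 0.285 and 1.87 CPM in any library. Their markers Dcn, Thy1, Tyr, Tyrp1, Cd207, Itgam, Csf1r and Cdh5 were at 0 in all 12 libraries.

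Levels of different genes are compared per length, in the deposited FPKM. Over the 12 libraries, G6pdx had the highest mean level, 37.5 ± 4.53 FPKM (SD, n = 12). Srxn1 followed at 21.9 ± 2.58, Keap1 at 15.1 ± 2.32 and Me1 at 9.999 ± 1.49 FPKM. Gclc stood at 7.02 ± 2.39, Nfe2l2 at 5.65 ± 1.35 and Gsr at 3.75 ± 1.03 FPKM. Lowest were Txnrd1 at 2.38 ± 0.803, Gclm at 1.99 ± 0.545 and Nqo1 at 1.84 ± 0.507 FPKM. In this order only G6pdx kept clear of its neighbour, with a lowest library of 31.6 FPKM against a highest of 26.9 for Srxn1. Every other adjacent pair overlapped in range over the libraries. The 10 levels summed to between 101 and 114 FPKM in each library. The NADPH-making G6pdx thus had the highest per-length level, while the classical target Nqo1 rested on 27 to 82 counts per library.

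**Figure D1:**
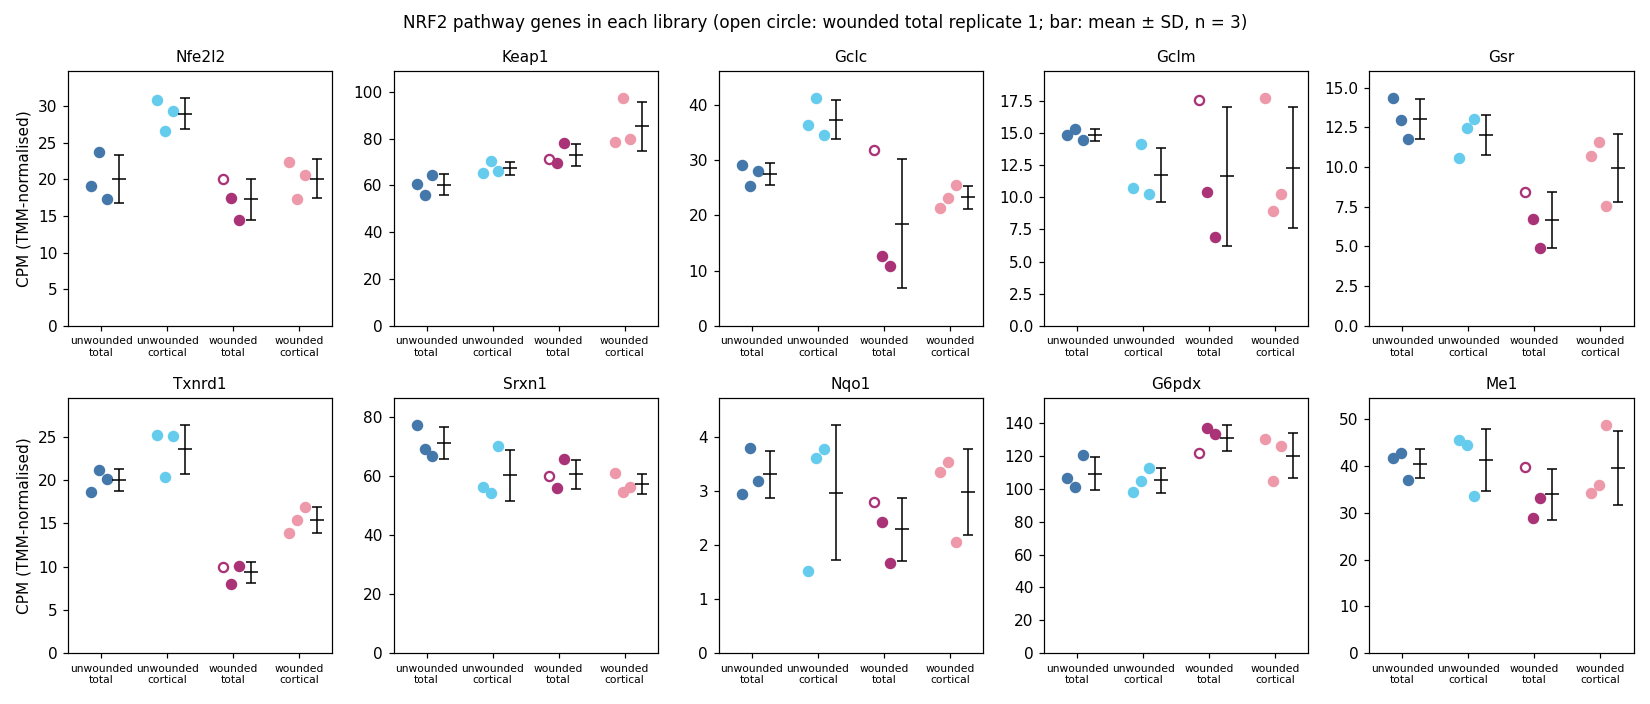
Level of each member in CPM (y axis, from 0) in the 4 groups (x axis). Circles are libraries, the open circle is the first replicate of wounded total, and bars give mean ± SD of 3. Txnrd1 and Gsr have their lowest values in wounded total, and the open circle of Gclc lies at 31.9 CPM, above its mates at 12.7 and 10.8.

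Of the members, 2 disulfide reductases were lower after wounding. In the total fraction, Txnrd1 was 2.14-fold and Gsr 1.95-fold lower in wounded than in unwounded cells, and these were the 2 of 10 members that passed the test there (both lower). Across all 13571 genes 15.6% passed in that comparison. In the cortical fraction 0 of 10 members passed after wounding, against 2.48% of all genes. There 4 members had an unadjusted p under 0.05 in edgeR, beside 17.25% of all genes. DESeq2 called 1 member, beside 736 of the 13571 genes. Between fractions, 1 of 10 members passed in unwounded cells (Nfe2l2, higher in cortical), against 14.2% of all genes, and 1 of 10 in wounded cells (Txnrd1, higher in cortical), against 15.7%. In this edgeR fit of all 12 libraries the shares of members called were thus within about 1 gene of the background in every comparison. That did not hold in every fit. With only the cortical libraries fitted, 4 of 10 members passed for wounding, beside 1423 of 12599 genes. Shares without the first wounded total replicate are given below. Groups did not overlap for 4 members between fractions in unwounded cells and for 2 in wounded cells, where 36.2% and 29.2% of all genes did not. After wounding the groups were apart for 6 members in the total and 4 in the cortical fraction, beside 32.1% and 26.9% of all genes. The median log2 fold change of the members was -0.30 for wounding in the total fraction, beside -0.026 for all genes tested. It was -0.54 beside -0.039 without the first wounded total replicate, and -0.18 beside 0.084 with the gene length trend removed. In the cortical fraction it was -0.065, beside 0.015.

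Without the first replicate of wounded total, 5 members passed for wounding in the total fraction and 4 in the cortical fraction, where 24.9% and 9.07% of all genes passed. Between fractions, 2 passed in unwounded and 3 in wounded cells, beside 22.4% and 24.7% of all genes. Calls thus moved also in comparisons that do not contain that library. In this fit the shared estimate of the spread, the scaling and the genes tested (14073) all differed, and which of them moved the calls was not tested. Members are named with both values below.

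**Figure D2:**
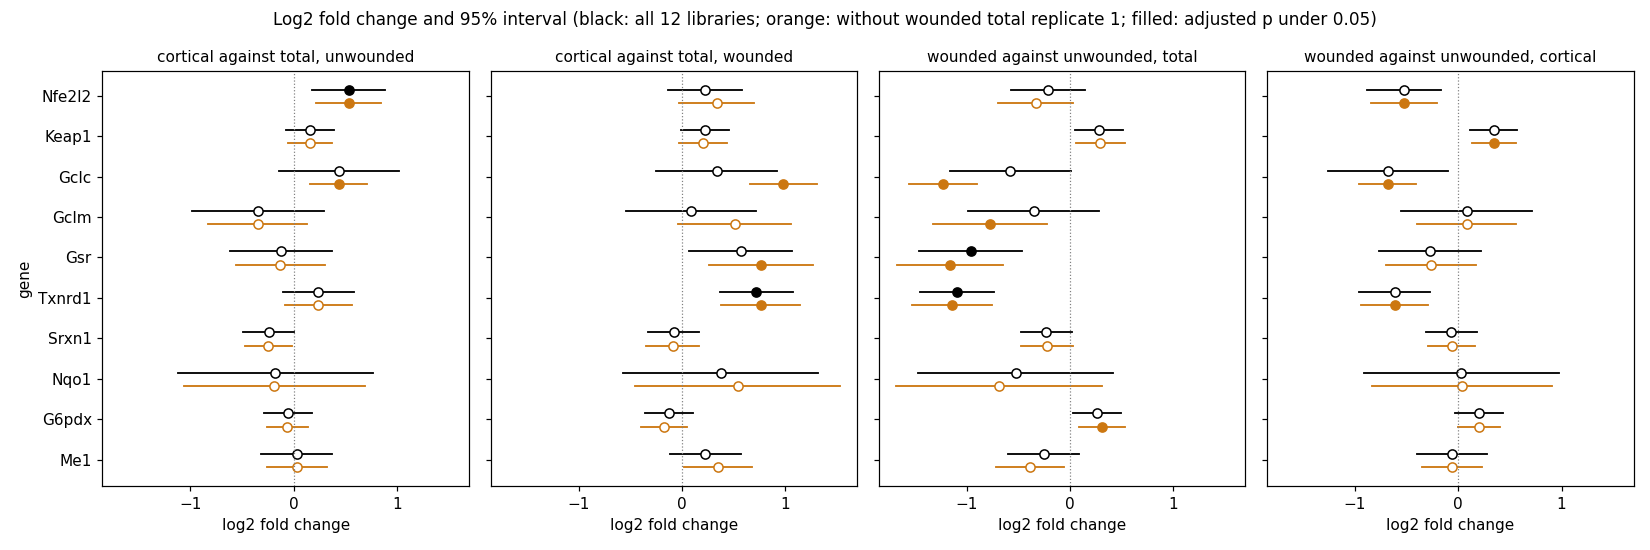
Log2 fold change (x axis) of each member (y axis) with its 95% interval in 4 comparisons. Black shows the fit to all 12 libraries and orange the fit without the first replicate of wounded total, and filled circles had an adjusted p under 0.05. Txnrd1 is filled in both fits for wounding in the total fraction, while Gclc is filled only in orange.

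The regulators come first. Nfe2l2 (ENSMUSG00000015839, chr2:75675513-75704641, minus strand, mm10) encodes NRF2 itself. It was at 19.1, 23.8 and 17.3 CPM in unwounded total and at 30.9, 26.7 and 29.4 CPM in unwounded cortical libraries, so every cortical value lay above every total value. The cortical level was 1.45-fold higher (log2 0.53, SE 0.17, adjusted p = 0.0431), and the call was kept in 15 of 23 alternative settings. Among the settings that lost it were those without replicate 1 or 3 of unwounded total. It was also lost without replicate 1, 2 or 3 of unwounded cortical. The adjusted p reached up to 0.159. Wounded total libraries had 20.1, 17.4 and 14.4 CPM and wounded cortical libraries 22.4, 17.3 and 20.7 CPM, which overlapped (log2 0.22, SE 0.17, adjusted p = 0.431). Unwounded cortical thus held the highest Nfe2l2 level of the 4 groups, 29.0 ± 2.13 CPM (SD, n = 3), beside 20.1 ± 3.33 CPM in unwounded total, 17.3 ± 2.83 CPM in wounded total and 20.1 ± 2.60 CPM in wounded cortical. The cortical level was lower after wounding without passing the test (log2 -0.53, SE 0.17, adjusted p = 0.106). It passed without the first wounded total replicate (adjusted p = 0.0335), a library that is in neither of those groups. In the total fraction the wounding difference was -0.21 (SE 0.17, adjusted p = 0.450), and -0.33 (adjusted p = 0.184) without that library. Whether the fraction difference itself changed with wounding was not resolved (difference of log2 values -0.31, 95% interval -0.82 to 0.19, adjusted p = 0.763).

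Keap1 (chr9:21229730-21239361, minus strand) encodes the adaptor that hands NRF2 to its ubiquitin ligase. Its values were 60.7, 55.7 and 64.5 CPM in unwounded total and 65.3, 70.3 and 66.3 CPM in unwounded cortical. After wounding they were 71.4, 69.5 and 78.3 CPM in total and 78.7, 97.4 and 79.9 CPM in cortical libraries. All 6 wounded libraries were above the unwounded libraries of their own fraction, by 1.21-fold in total and 1.27-fold in cortical. Neither difference passed (log2 0.28, SE 0.11, adjusted p = 0.0987, and log2 0.34, SE 0.11, adjusted p = 0.105). The cortical one passed without the first wounded total replicate (adjusted p = 0.0381), and the total one passed once the trend on gene length was removed (log2 0.40, adjusted p = 0.0174). Between fractions the log2 differences were 0.16 in unwounded and 0.22 in wounded cells (adjusted p = 0.418 and 0.187).

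The per-length ratio of Keap1 to Nfe2l2 within a library sets the inhibitor against its target. It was 2.57, 1.90 and 3.01 in unwounded total and 1.71, 2.13 and 1.82 in unwounded cortical libraries. In wounded total it was 2.88, 3.23 and 4.40, and in wounded cortical 2.84, 4.55 and 3.13. The cortical values after wounding were all above those before it. In the total fraction the groups overlapped only through the first wounded total replicate, at 2.88. The values of its mates, 3.23 and 4.40, were above all unwounded total values. The ratio is a description of messenger levels, with no test.

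Glutathione synthesis starts with glutamate-cysteine ligase, whose catalytic subunit is Gclc and whose modifier subunit is Gclm. Gclc (chr9:77754535-77794485, plus strand) was at 29.2, 25.3 and 28.1 CPM in unwounded total and 36.3, 41.2 and 34.5 CPM in unwounded cortical libraries. Wounded total libraries had 31.9, 12.7 and 10.8 CPM, and wounded cortical libraries 21.3, 23.1 and 25.4 CPM. The first wounded total replicate was thus far above its mates and above all unwounded total libraries, and it alone made the wounded and unwounded total groups overlap. With all libraries, Gclc passed in no comparison: log2 -0.58 (SE 0.28, adjusted p = 0.175) for wounding in total, -0.68 (SE 0.27, adjusted p = 0.207) for wounding in cortical, and 0.44 and 0.34 between fractions in unwounded and wounded cells (adjusted p = 0.351 and 0.473). Without that library all 4 passed, and the SE of the wounding difference in the total fraction fell to 0.16. Gclc was then 2.34-fold lower in wounded than in unwounded total (log2 -1.23, adjusted p = 4.24e-06) and 1.98-fold higher in cortical than in total after wounding (log2 0.98, adjusted p = 4.90e-05). The other 2 values hardly moved: log2 -0.68 for wounding in cortical (adjusted p = 0.00219) and 0.44 between fractions in unwounded cells (adjusted p = 0.0188). Gclc is the member whose reading depends most on 1 library.

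Gclm (chr3:122245557-122270732, plus strand) was even in unwounded total, at 14.8, 15.3 and 14.4 CPM. Unwounded cortical libraries had 10.7, 14.1 and 10.3 CPM, all below those values (log2 -0.34, SE 0.30, adjusted p = 0.553). Wounded total libraries spread from 17.6 over 10.4 to 6.93 CPM, with the first replicate again the highest. Wounded cortical libraries had 17.7, 8.93 and 10.3 CPM. No difference passed with all libraries. For wounding in the total fraction the log2 value was -0.35 (SE 0.30, adjusted p = 0.487), and -0.78 (SE 0.27, adjusted p = 0.0337) without the first replicate.

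The 2 subunits did not keep a fixed proportion. Per length, Gclc over Gclm was 3.29, 2.77 and 3.25 in unwounded total and 5.64, 4.87 and 5.61 in unwounded cortical libraries. It was 3.03, 2.04 and 2.60 in wounded total and 2.00, 4.33 and 4.13 in wounded cortical. Unwounded cortical libraries therefore had the highest ratios of all 12, with catalytic subunit values above and modifier subunit values below those of unwounded total, although neither difference passed. In the wounded total group the first replicate, high in both genes, had a ratio close to that of unwounded total. These ratios were looked at with the levels known and carry no test.

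**Figure D3:**
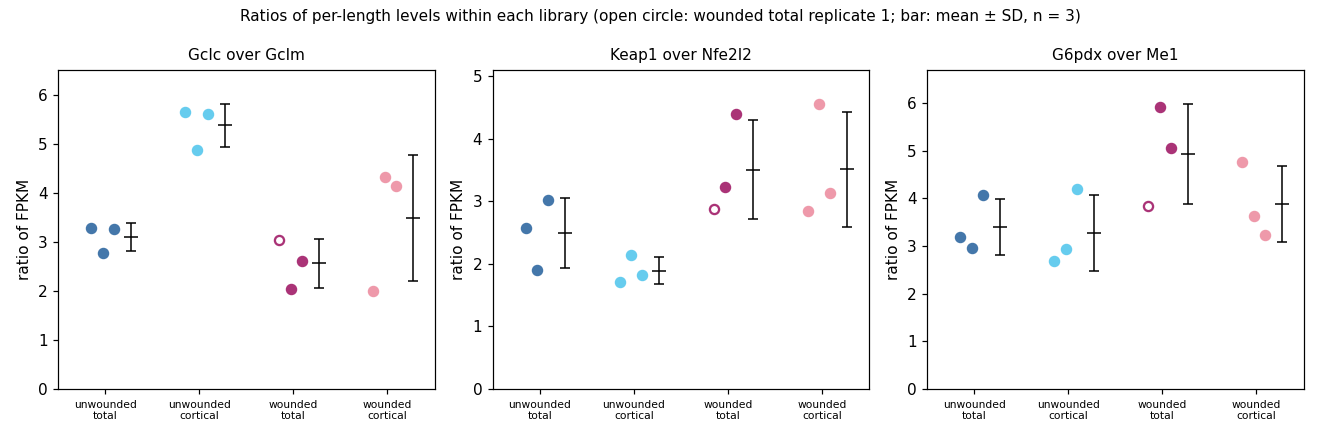
Ratio of FPKM (y axis, from 0) between pairs of members in each library, by group (x axis). Bars give mean ± SD of 3, and the open circle is the first replicate of wounded total. Gclc over Gclm lies at 4.87 to 5.64 in unwounded cortical libraries and at 4.33 or below in all others.

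Gsr (chr8:33652523-33698163, plus strand) encodes glutathione reductase, which returns oxidised glutathione to its reduced form at the cost of NADPH. It was at 14.3, 13.0 and 11.8 CPM in unwounded total and at 8.43, 6.74 and 4.90 CPM in wounded total libraries. The groups were fully apart, and Gsr fell on wounding (log2 -0.96, SE 0.24, adjusted p = 0.0114). The call held in 21 of 23 alternative settings, with an adjusted p of up to 0.0574. The first wounded total replicate was the highest of its group here too, and without it the value was -1.16 (adjusted p = 0.00105). Cortical libraries had 10.6, 12.5 and 13.0 CPM before and 10.7, 11.6 and 7.54 CPM after wounding, which overlapped (log2 -0.27, SE 0.23, adjusted p = 0.619). After wounding, cortical Gsr was 1.48-fold above total without passing (log2 0.57, SE 0.24, adjusted p = 0.118), and it passed without the first wounded total replicate (0.77, adjusted p = 0.0239). The change of the fraction difference with wounding was 0.69 (95% interval -0.0079 to 1.39, adjusted p = 0.556). With 80 to 327 counts per library, Gsr was among the thinly covered members.

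Txnrd1 (ENSMUSG00000020250, chr10:82833951-82897712, plus strand) encodes thioredoxin reductase, the enzyme that passes electrons from NADPH to thioredoxin. With all libraries it had the largest log2 fold change of the 10 members (without the first wounded total replicate, Gclc and Gsr were beyond it). Unwounded total libraries had 18.6, 21.1 and 20.1 CPM and wounded total libraries 9.91, 7.97 and 10.1 CPM. Each wounded value was well below each unwounded one, and Txnrd1 fell on wounding in the total fraction (log2 -1.10, SE 0.17, adjusted p = 4.10e-04). The first replicate of wounded total was in the range of its mates for this gene, and the value without it was -1.14. All 23 alternative settings kept the call, with log2 values of -1.17 to -0.70. Unwounded cortical libraries had 25.2, 20.3 and 25.1 CPM and wounded cortical libraries 13.9, 15.3 and 16.9 CPM, again with no overlap. That cortical difference was smaller (1.53-fold lower, log2 -0.62, SE 0.16) and did not pass (adjusted p = 0.0570), although it passed in 5 of 23 settings, among them the fit without the first wounded total replicate (adjusted p = 0.0157).

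Between the fractions of wounded cells Txnrd1 was 1.65-fold higher in cortical (log2 0.72, SE 0.17, adjusted p = 0.00876), with all 3 cortical values above all 3 total values. With the trend on gene length removed the value was 0.51 and no longer passed (adjusted p = 0.0703). In unwounded cells the groups overlapped (log2 0.24, SE 0.16, adjusted p = 0.405). The change of the fraction difference with wounding was 0.48 (95% interval -0.015 to 0.97, adjusted p = 0.568), so a difference between wounded and unwounded cells was not shown. Among all genes 0.125% passed that test of change. None of the 10 members did, and DESeq2 called 0 of them as well, beside 72 of the 13571 genes. With all 12 libraries no member had an unadjusted p under 0.05 there in edgeR, beside 9.05% of all genes. Without the first wounded total replicate 2.93% of all genes passed the test of change and still 0 members. In that fit the 95% interval lay above 0 for Gclc (0.12 to 0.97) and Gclm (0.13 to 1.58). The same held for Txnrd1 (0.023 to 1.03) and Gsr (0.23 to 1.56), and the intervals of the other members spanned 0. The members' median was 0.42 there, beside 0.035 for all genes.

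The sequence upstream of the internal Txnrd1 start is shown because this gene's wounding difference passed in all 23 settings and its element lies there, in the gene's own body. It covers chr10:82858956-82859205, plus strand, GRCm38.p6, and on this strand the element reads as its reverse complement, in capitals:
Txnrd1 upstream: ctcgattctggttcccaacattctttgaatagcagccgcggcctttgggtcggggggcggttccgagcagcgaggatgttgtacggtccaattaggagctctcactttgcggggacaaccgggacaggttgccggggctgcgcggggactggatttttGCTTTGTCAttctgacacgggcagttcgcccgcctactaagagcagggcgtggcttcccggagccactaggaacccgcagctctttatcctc
The counts are per gene, so the start site from which these messengers came cannot be told from them.

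Srxn1 (chr2:152105516-152111376, plus strand) encodes sulfiredoxin, which repairs over-oxidised peroxiredoxins and thus works beside the thioredoxin system. It had 77.1, 69.0 and 66.9 CPM in unwounded total, 56.2, 54.3 and 70.1 CPM in unwounded cortical, 59.9, 55.9 and 65.8 CPM in wounded total and 61.1, 54.7 and 56.1 CPM in wounded cortical libraries. The wounded total values were all just below the unwounded ones, yet the difference was small and did not pass (log2 -0.23, SE 0.12, adjusted p = 0.207). Values for the other 3 comparisons ran from -0.24 to -0.067, with adjusted p of 0.202 to 0.837. In Srxn1 the wounding difference of the total fraction thus had a 95% interval of -0.48 to 0.018, which lies above the interval of Txnrd1, -1.45 to -0.74. The difference between these 2 genes was not tested.

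Nqo1 (chr8:107388225-107403206, minus strand) encodes the quinone reductase often used as an indicator of NRF2 activity. It was at 2.94, 3.78 and 3.18 CPM in unwounded total and at 1.52, 3.60 and 3.76 CPM in unwounded cortical libraries. Wounded total libraries had 2.79, 2.41 and 1.66 CPM and wounded cortical libraries 3.34, 3.52 and 2.06 CPM. All wounded total values were below the unwounded total values, but the log2 difference of -0.53 had an SE of 0.45 (adjusted p = 0.487, 95% interval -1.47 to 0.42). Without the first wounded total replicate the value was -0.69 (adjusted p = 0.339). A change of this size was not resolved. The gene had at most 82 counts in a library. Its replicates spread by 13.1% (SD over mean) in unwounded total, 25.3% in wounded total and up to 42.1% in unwounded cortical. The part of counts or spread in this error was not tested.

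G6pdx and Me1 supply NADPH, through the first step of the pentose phosphate pathway and through malic enzyme. G6pdx (chrX:74409483-74429194, minus strand) had 106.5, 101.0 and 120.7 CPM in unwounded total and 122.1, 137.1 and 133.7 CPM in wounded total libraries. The groups were apart by a narrow margin, and the 1.20-fold higher level did not pass (log2 0.26, SE 0.11, adjusted p = 0.125). It passed without the first wounded total replicate (0.31, adjusted p = 0.0383) and with the gene length trend removed (0.35, adjusted p = 0.0223). Cortical libraries had 98.1, 104.8 and 112.8 CPM before and 130.5, 104.7 and 126.0 CPM after wounding, which overlapped (log2 0.20, adjusted p = 0.385). Between fractions the values were -0.058 and -0.12 in unwounded and wounded cells (adjusted p = 0.828 and 0.521).

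Me1 (chr9:86581371-86695953, minus strand) had 41.7, 42.7 and 37.1 CPM in unwounded total, 45.5, 44.6 and 33.7 CPM in unwounded cortical, 39.8, 28.9 and 33.1 CPM in wounded total and 34.2, 36.0 and 48.7 CPM in wounded cortical libraries. Its groups overlapped in all comparisons, with log2 values from -0.26 to 0.22 and adjusted p of 0.325 to 0.949. In the total fraction the point values for the 2 NADPH genes had opposite signs. Per length, G6pdx over Me1 was 2.95 to 4.07 in unwounded total and 3.84 to 5.92 in wounded total libraries, and 2.69 to 4.19 and 3.23 to 4.77 in the cortical fraction. In both fractions these ranges overlapped, in the total fraction only through the first wounded total replicate, at 3.84.

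The wider pathway was followed in 5 lists of 85 other genes, of which 78 were tested. The lists were chosen with earlier results of these data known, so their shares of calls are descriptions. Between fractions of unwounded cells 11 were higher and 15 lower in cortical (33.3% called, beside 14.2% of all genes), and in wounded cells 6 higher and 17 lower (29.5%, beside 15.7%). After wounding 19 rose and 5 fell in the total fraction (30.8%, beside 15.6%), and 3 rose and 0 fell in the cortical fraction (3.85%, beside 2.48%). Without the first wounded total replicate the counts of 80 genes were 12 higher and 26 lower, 10 and 28, 29 and 7, and 11 and 4, in the same order. Fraction directions depended on scaling: by library size alone the median of all genes rose to 0.19 in unwounded and 0.25 in wounded cells. The counts of the lists then became 13 higher and 8 lower, and 12 and 10. Called genes also differed in length: in unwounded cells the median was 5441 bases for those higher and 3050 for those lower in cortical, and in wounded cells 5527 and 2782, beside 3873 for all genes tested.

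Partners and turnover factors of NRF2 (14 genes, all tested) included 5 that were higher and 0 that were lower in cortical in unwounded cells, with a median of 0.26 beside 0.0023 for all genes, and 4 were higher and 1 lower in wounded cells. In unwounded cells Bach1, a repressor that competes for antioxidant response elements, was higher in cortical (log2 1.02, SE 0.18, adjusted p = 0.00125). So were Nfe2l1, a transcription factor related to NRF2 (0.74, SE 0.093, adjusted p = 1.46e-04), and Cand1, an exchange factor of cullin ligases (0.64, SE 0.11, adjusted p = 0.00113). Each of these 3 passed in all 23 alternative settings. In wounded cells Mafg, a small Maf partner (0.57, SE 0.11, adjusted p = 0.00331), was higher in cortical, and Rbx1, a subunit of the cullin ligase (-0.55, SE 0.16, adjusted p = 0.0310), was lower. Rbx1 passed in 14 of 23 settings, with log2 values of -0.77 to -0.30 and an adjusted p of up to 0.132. Its value of -0.77 (adjusted p = 3.64e-06) was that without the first wounded total replicate. Bach1 was higher in cortical in wounded cells too (0.57, SE 0.18, adjusted p = 0.0373) but not with the length trend removed (0.38, adjusted p = 0.200).

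On wounding, 5 of these partners rose and 1 fell in the total fraction, and 2 rose in the cortical fraction. The highest rise was that of Maff, another small Maf gene (log2 2.30, SE 0.29, adjusted p = 8.61e-05 in total, and 1.38, SE 0.28, adjusted p = 0.0161 in cortical). The small Maf genes did not move together. Mafg was the 1 that fell in total (-0.52, SE 0.11, adjusted p = 0.00507), and Mafk did not pass (0.060, SE 0.13, adjusted p = 0.821). In cortical neither Mafg nor Mafk passed (-0.13 and 0.13, adjusted p = 0.604 and 0.686). Sqstm1, whose product p62 binds KEAP1, rose in both fractions (0.78, SE 0.098, adjusted p = 8.61e-05, and 0.42, SE 0.099, adjusted p = 0.0323). Cand1 rose in total (0.70, SE 0.11, adjusted p = 4.50e-04). The cortical call of Sqstm1 passed in 11 of 23 settings and that of Maff in 19.

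Glutathione genes (20 listed, 19 tested) included 1 that was higher and 5 that were lower in cortical in unwounded cells, and 0 higher and 6 lower in wounded cells. Their median log2 values were -0.41 and -0.46, beside 0.0023 and 0.042 for all genes. With the length trend removed they were -0.18 and -0.33, beside 0.030 and -0.040. Under library size scaling they were -0.22 and -0.21, beside 0.19 and 0.25. Slc7a11, the cystine importer that feeds glutathione synthesis, was the 1 that was higher (log2 0.72, SE 0.14, adjusted p = 0.00252). Gsta4, a glutathione S-transferase, was lower in unwounded (-0.54, SE 0.14, adjusted p = 0.0158) and wounded cells (-0.67, SE 0.14, adjusted p = 0.00513). Its unwounded call held in 16 of 23 settings, and with the length trend removed the value was -0.27. Gstp1 was lower in unwounded cells (-0.55, SE 0.16, adjusted p = 0.0275), but not with the length trend removed (-0.23, adjusted p = 0.161). Mgst2 and Gsta3 were lower in wounded cells (-0.82, SE 0.20, adjusted p = 0.0112, and -0.59, SE 0.095, adjusted p = 9.04e-04). These transferases belong to families of similar genes, between which reads may be split. In the total fraction 5 rose and 1 fell on wounding, led by Mgst2 (0.71, SE 0.20), Mgst3 (0.57, SE 0.16) and Slc7a11 (0.54, SE 0.14), with adjusted p of 0.0230, 0.0266 and 0.0137. These 3 calls held in 19, 16 and 19 of 23 settings, with adjusted p of up to 0.102, 0.123 and 0.0910. Without the first wounded total replicate the 3 values were 0.84, 0.79 and 0.44, with adjusted p of 0.00257, 1.23e-06 and 0.0225. In the cortical fraction 0 of 19 passed with all libraries, and 2 without that replicate.

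Thioredoxin and peroxide genes (18 listed, 17 tested) showed 3 higher and 8 lower in cortical in unwounded cells, and 1 higher and 6 lower in wounded cells. Txn1, the thioredoxin that Txnrd1 reduces, was lower in cortical in both states (log2 -0.68, SE 0.12, adjusted p = 0.00133, and -0.69, SE 0.12, adjusted p = 0.00143). It kept both calls in all 23 settings, with values of -0.38 and -0.48 once the length trend was removed. In wounded cells Txnrd1 and Txn1 thus lay on opposite sides, the reductase higher and its substrate lower in cortical. Txnrd1 did not pass there with the length trend removed (0.51, adjusted p = 0.0703). Sod1, a superoxide dismutase, was lower in cortical as well (-0.63, SE 0.16, adjusted p = 0.0131, and -0.79, SE 0.16, adjusted p = 0.00334), and so was Prdx5, a peroxiredoxin, in wounded cells (-0.92, SE 0.16, adjusted p = 0.00133). Wounding raised 4 and lowered 2 in the total fraction. Txnip, which binds and inhibits thioredoxin, rose in total (1.23, SE 0.16, adjusted p = 9.90e-05) and in cortical (0.96, SE 0.16, adjusted p = 0.00357), where it was the only 1 of the list. Prdx5 rose (0.74, SE 0.16, adjusted p = 0.00417) and the mitochondrial Prdx3 fell in total (-0.66, SE 0.13, adjusted p = 0.00309). Without the first wounded total replicate the values in total were 0.96 for Txnip, 0.95 for Prdx5 and -0.83 for Prdx3.

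NADPH supply genes (13 listed, 12 tested) showed 0 calls between fractions in unwounded cells and 2 lower in cortical in wounded cells. These were Taldo1 (-0.56, SE 0.10, adjusted p = 0.00242) and Pgls (-0.48, SE 0.14, adjusted p = 0.0243), both of the pentose phosphate pathway. Taldo1 passed in all 23 settings and Pgls in 16, with values of -0.65 to -0.24 and an adjusted p of up to 0.104. In the total fraction 3 rose on wounding and 1 fell. Transketolase Tkt rose (0.54, SE 0.11, adjusted p = 0.00452), as did Taldo1 (0.46, SE 0.10, adjusted p = 0.00704), and the NAD kinase Nadk fell (-0.56, SE 0.10, adjusted p = 0.00117). G6pdx, the entry to the same pathway, was higher without passing, as given above.

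Detoxification and heme genes (20 listed, 16 tested) gave 2 higher and 2 lower in cortical in unwounded cells and 1 higher and 2 lower in wounded cells. The biliverdin reductase Blvrb was lower in cortical in both (-0.57, SE 0.12, adjusted p = 0.00605, and -0.68, SE 0.12, adjusted p = 0.00199), and Blvra in wounded cells (-0.49, SE 0.15, adjusted p = 0.0383). The call of Blvra held in only 8 of 23 settings, with values of -0.68 to -0.24 and an adjusted p of up to 0.219. Its value of -0.68 (adjusted p = 1.14e-04) was that without the first wounded total replicate. Ephx1, an epoxide hydrolase, was higher in unwounded cells (0.53, SE 0.13, adjusted p = 0.0119). Abcc1, an efflux pump for glutathione conjugates, was higher in both (0.49 and 0.55, SE 0.13 each, adjusted p = 0.0183 and 0.00994), but in neither with the length trend removed (0.24 and 0.16, adjusted p = 0.284 and 0.484). On wounding, Ephx1 and Ptgr1 rose in the total fraction (0.61 and 0.57, SE 0.13 each, adjusted p = 0.00504 and 0.00675), and 0 of 16 passed in the cortical fraction. Hmox1, the heme oxygenase known as an NRF2 target and singled out with its values known, passed in none of the 4 comparisons: its log2 values were -0.27 to -0.18, with adjusted p of 0.600 to 0.765.

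**Figure D4:**
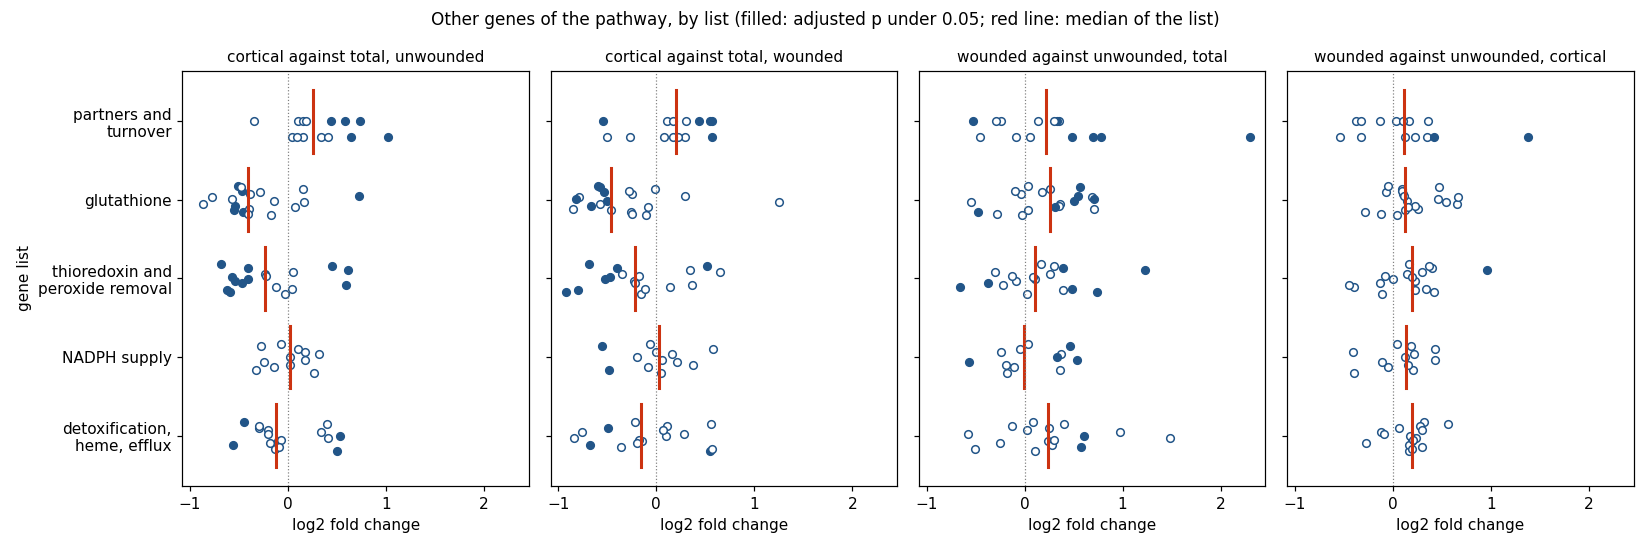
Log2 fold change (x axis) of the 78 tested pathway genes in 5 lists (y axis) and 4 comparisons. Filled circles had an adjusted p under 0.05, and red lines mark list medians. Glutathione genes have medians of -0.41 and -0.46 between fractions (-0.18 and -0.33 with the gene length trend removed), while Maff at 2.30 is the farthest point for wounding in the total fraction.

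The genes whose log2 CPM followed Nfe2l2 most closely over the 12 libraries were Ssr3 (Pearson r = 0.978), Rabggtb (0.915) and Rab35 (0.914), out of 8855 protein-coding genes averaging 100 counts or more. Ssr3 had group means of 223.8 CPM in unwounded total, 274.2 in unwounded cortical, 212.0 in wounded total and 230.6 in wounded cortical libraries, the same order of the highest and the lowest group as Nfe2l2. For Nqo1 they were Kpna3 (0.916), Crls1 (0.850) and D16Ertd472e (0.832). The 12 points share 4 groups and their depths, so these values are descriptions.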

How the data were processed

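Messenger RNA was selected by poly-A and primed with random hexamers in non-directional libraries, per the labels' protocols, so reads of overlapping genes on opposite strands cannot be told apart. The submitters' processing notes name CASAVA, HISAT2 and mm10; the counting tool is not given in the sources used here. The authors deposited raw counts per gene and FPKM (counts scaled for gene length and library size). Groups and replicate numbers came from the sample titles, and 0 per-sample columns were left unused. No pair of replicates agreed within sampling noise.

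Counts were tested in R 4.3.3 with edgeR 4.0.16 (filterByExpr, TMM, quasi-likelihood F test, two-sided) in 1 fit of all 12 libraries with a mean per group. There were 5 contrasts, including the change of the fraction difference with wounding, and p-values were adjusted by Benjamini-Hochberg over the 13571 genes tested, at 0.05. Alternatives used limma 3.58.1, DESeq2 1.42.0, other scalings and filters, a loess trend on gene length (span 0.5) and each library left out in turn; those for the lists of other pathway genes were added after seeing the data. The fits were tested on simulated data. Intervals cover 95%. Figures used matplotlib 3.10.9.

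Members and lists were chosen with earlier results of these data known. All members are named. From each list at most the 3 called genes with the largest change per comparison are named, and for Nfe2l2 and Nqo1 the 3 most correlated genes. Exceptions are Hmox1 and, for wounding, Mafg and Mafk, which were named with their values known. Start site windows came from RefSeq, gene overlaps from GENCODE M21.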

Additional observations from a re-analysis of the deposited data

How the results depend on the processing

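Of 1140 values of members under 23 alternative settings, 38 changed sign, 0 of them where the difference was called. Members called stayed at 0 for the change of the fraction difference under every setting run; the fit of only the groups compared could not be made there. Between fractions in unwounded cells, 1 member was called, 0 with the replicate block (1857 of 13571 genes) and 0 to 2 with a library left out. With only the groups compared in the fit it was 2, beside 3014 of 12693 genes. In wounded cells 1 member was called, 2 under library size scaling (2723 of 13571 genes) and 0 to 3 with a library left out. It was 0 with the gene length trend removed (1459 of 13571 genes), also with the replicate block added (1365 genes). With only the groups compared it was 0 as well (970 of 12657 genes). For wounding in total, 2 became 4 with the length trend removed (2573 of 13571 genes), also with the replicate block added (2484 genes). It became 3 with no filter (2391 of 21619 genes) and 1 to 5 with a library left out. For wounding in cortical, 0 became 1 with no filter (559 of 21619 genes) and with a mean of at least 50 counts (452 of 10386). It was also 1 with DESeq2 (736 of 13571). It became 4 with only the groups compared (1423 of 12599 genes) and 0 to 4 with a library left out. Over all genes, calls between fractions in unwounded cells were 1928, 3014 with only the groups compared, and 949 to 3151 with a library left out. In wounded cells they were 2124, 970 with only the groups compared, 1365 with the length trend removed and the replicate block, and 1084 to 3475 with a library left out. For wounding they were 2116 in total, 1175 with only the groups compared and 1128 to 3502 with a library left out. In cortical they were 337, 199 under library size scaling, 559 with no filter, 736 with DESeq2, 1423 with only the groups compared and 108 to 1276 with a library left out. The change of the fraction difference gave 17, with 11 under library size scaling, 138 with no filter, 72 with DESeq2, 10 with limma at either pseudocount (1 or 0.1), 10 with the replicate block, 30 with the length trend removed with or without the block, and 4 to 413 with a library left out. The cause of these shifts was not tested. Of calls between fractions, 46.6% were higher in unwounded and 48.7% in wounded cells, against 77.1% and 80.9% under library size scaling and, in wounded cells, 25.0% with the length trend removed. Of calls for wounding in total 53.8% were higher, against 39.1% and 74.2%.

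Across genes, departures from the group mean in libraries that share a number correlated at -0.031 to 0.0090 and -0.016 to -0.0076 between fractions, and at -0.014 to 0.22 and -0.019 to 0.0044 between wound states. Between wounded and unwounded total libraries, numbers 1 and 2 correlated (0.15 and 0.22) and number 3 did not (-0.014), so the numbers were not treated as pairs. With the replicate block Nfe2l2 had an adjusted p of 0.0505 between fractions in unwounded cells, and no other call of a member changed. Nqo1 had the fewest counts of the members, 27 to 82 per library; how far depth or replicate spread set its error was not tested.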
